A study of Mus musculus with 10 samples.

Results

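The class B peptide hormone receptors were followed in whole mouse retina, with Glp2r, the receptor of glucagon-like peptide 2 (GLP-2), at their head. The members were 10 genes taken by symbol from the deposited count table: Glp2r, Glp1r, Gipr, Gcgr, Sctr, Vipr1, Vipr2, Adcyap1r1, Crhr1 and Crhr2. All 10 had at least 1 count, among 28506 genes with any count, and 7 of the 10 were among the 15539 genes abundant enough to be tested. Glp2r was chosen because of its rise, so its levels and fold change are given as a description without a test. The other 9 were taken as its relatives by family.

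Retinas were collected from 10 mice aged 6 to 8 weeks, 14 days after intravitreal injection. In the AAV2-GFP group, 5 mice received green fluorescent protein (GFP) in the adeno-associated virus 2 capsid, and in the AAV206-GFP group 5 mice received GFP in the AAV206 capsid, which the study's title calls specific to the retinal pigment epithelium (RPE). Both groups were injected and both carried GFP, and uninjected retinas were not analysed here. The labels give no genotype, strain, sex, promoter or vector dose. Each library is 1 mouse of bulk tissue, so more cells that carry a transcript and more transcript per cell cannot be told apart.

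Class B receptors are G protein-coupled receptors with a large extracellular domain that binds a peptide hormone. Most of them act through the stimulatory G protein, which turns on adenylyl cyclase and raises cyclic AMP (cAMP) in the cell. GLP-2 is cut from proglucagon and is best known as a growth signal for the intestinal lining. In the retina, vasoactive intestinal peptide (VIP) is a classical product of a class of amacrine cells, and the related peptide PACAP acts on retinal neurons through the receptor encoded by Adcyap1r1.

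Glp2r lies on chromosome 11 at chr11:67661502-67771153 on the minus strand (GRCm38, GENCODE M21 annotation, ENSMUSG00000049928). The 250 bases before the start of each gene were taken from RefSeq (GRCm38.p6), whose table matched 8 of the 10 members, all but Gipr and Sctr. The 3 members printed here are Glp2r, with the largest increase, Vipr2, the most abundant relative, and Crhr1, the relative that fell. Each runs 5′ to 3′ up to the base before the gene's start, with CpG dinucleotides in capitals, and the coordinates are chr11:67771154-67771403 (minus strand) for Glp2r, chr12:116077476-116077725 (plus strand) for Vipr2 and chr11:104132531-104132780 (plus strand) for Crhr1.
Glp2r: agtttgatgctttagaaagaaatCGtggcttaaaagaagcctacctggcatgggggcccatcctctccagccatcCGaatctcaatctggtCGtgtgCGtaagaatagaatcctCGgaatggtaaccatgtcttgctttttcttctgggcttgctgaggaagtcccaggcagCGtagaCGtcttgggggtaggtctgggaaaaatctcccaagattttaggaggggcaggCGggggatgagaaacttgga
Vipr2: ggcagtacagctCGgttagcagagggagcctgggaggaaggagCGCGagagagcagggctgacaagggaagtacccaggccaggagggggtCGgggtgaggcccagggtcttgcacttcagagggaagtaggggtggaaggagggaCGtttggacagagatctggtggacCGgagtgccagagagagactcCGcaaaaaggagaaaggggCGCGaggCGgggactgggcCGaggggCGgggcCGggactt
Crhr1: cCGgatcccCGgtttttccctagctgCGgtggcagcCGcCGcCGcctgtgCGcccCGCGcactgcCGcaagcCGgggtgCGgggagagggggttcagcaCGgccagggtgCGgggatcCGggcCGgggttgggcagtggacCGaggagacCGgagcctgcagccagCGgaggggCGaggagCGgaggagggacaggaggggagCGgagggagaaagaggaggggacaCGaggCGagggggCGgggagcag
The Glp2r sequence has a GC content of 50.4% and 8 CpG dinucleotides, against 65.2% and 13 for Vipr2 and 74.8% and 25 for Crhr1. Glp2r had the lowest GC content of the 8 matched members, whose other values ran from 57.6% (Crhr2) to 74.8%, while the median over 32851 RefSeq windows of this length was 52.4%. The cAMP response element TGACGTCA was in none of the 8 windows on either strand, and 1.55% of all windows hold it. Its core TGACG was in the Vipr1 window, 13 bases before the start, and in none of the other 7, against 17.8% of all windows. The letters TAATCC, a motif bound by the photoreceptor factor CRX, were in none of the 8, against 6.25% of all windows.

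Total counts per library ran from 10989843 to 12752604, and 3 counts, taken as the floor, equalled 0.232 to 0.274 CPM. CPM, the usual unit of counts scaled to a common library size, was taken after TMM (trimmed mean of M values) normalisation. Across the table, edgeR's quasi-likelihood test called 1747 of 15539 genes (11.2%) at a Benjamini-Hochberg adjusted p-value under 0.05, 924 higher (5.95%) and 823 lower (5.30%) with AAV206-GFP. Rod markers defined the tissue, with summed levels of 46490 to 49955 CPM with AAV2-GFP and 50424 to 55339 CPM with AAV206-GFP. The summed cone markers were also higher with AAV206-GFP in every library (664 to 723 against 726 to 748 CPM), as were those of erythrocytes (67.8 to 85.8 against 101 to 319 CPM). The endothelial sum was lower (189 to 209 against 151 to 178 CPM). Single markers went both ways, named here after their values were seen. Of 5 cone markers, Gnat2 was called higher (log2 fold change 0.24, edgeR adjusted p = 0.0123) and Gngt2 lower (-0.53, edgeR adjusted p = 0.00902). Of 5 endothelial markers 2 were called lower, while Pecam1 stood at 0.21 (edgeR adjusted p = 0.303). RPE marker sums overlapped, at 10.4 to 35.6 and 13.4 to 20.5 CPM. Of 4 tested RPE markers 1 was called lower, Rgr (-0.79, edgeR adjusted p = 0.0328). Lens marker sums also overlapped, at 9.25 to 28.5 and 0.456 to 10.7 CPM. The 2 tested lens markers were called lower, Cryaa (-2.50, edgeR adjusted p = 0.0288) and Crybb2 (-2.67, edgeR adjusted p = 0.0183). The part of RPE and lens tissue in the receptor levels was not tested. AAV2-GFP replicate 1 stood apart in immune markers, with 136 CPM of microglia and macrophage markers.

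Glp2r was 4.10-fold higher with AAV206-GFP than with AAV2-GFP, a log2 fold change of 2.04 (SE 0.10). Its level was 120, 110, 96.0, 114 and 119 CPM in AAV2-GFP replicates 1 to 5, and 540, 460, 435, 508 and 348 CPM in AAV206-GFP replicates 1 to 5. These are 1221 to 1413 counts per library in the first group and 4100 to 6423 in the second. The groups did not overlap, and the lowest AAV206-GFP library stood far above the highest AAV2-GFP library. Means were 112 ± 9.77 and 458 ± 74.2 CPM (SD, n = 5 each), and the coefficient of variation was 8.74% in the former group and 16.2% in the latter. The wider spread of the AAV206-GFP group ran between replicate 1, the highest, and replicate 5, the lowest. The summed bipolar cell markers had the same highest and lowest library in this group, at 1091, 1002, 908, 1079 and 642 CPM in replicates 1 to 5. With AAV2-GFP they stood at 708, 889, 972, 997 and 934 CPM, lowest in replicate 1, where Glp2r was highest. The bipolar sums overlapped between the groups, and their part in the Glp2r levels was not tested.

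Among all 15539 genes tested, the fold increase of Glp2r ranked 19, and 148 genes (0.952%) were both called and at least 2-fold higher. Every gene with a greater fold increase had a mean under 100 CPM. Of the 2266 genes that averaged at least 100 CPM, Glp2r had the largest increase and was the only one to reach 4-fold. The next in that set, named here after its values were seen, was Ip6k2, an inositol hexakisphosphate kinase gene, at a log2 fold change of 1.14. In rank of mean level, Glp2r stood at position 1974 among tested genes with AAV2-GFP and at 224 with AAV206-GFP.

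The rod and cone marker sums, which separated the groups in the same direction as Glp2r, differed far less, and their part in the Glp2r difference was not tested. The erythrocyte marker sum, which was also higher with AAV206-GFP, was highest at 319 CPM in 1 AAV206-GFP library, and its part was not tested either. Without AAV2-GFP replicate 1, the library with the high immune markers, the log2 fold change of Glp2r was 2.07.

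**Figure D1:**
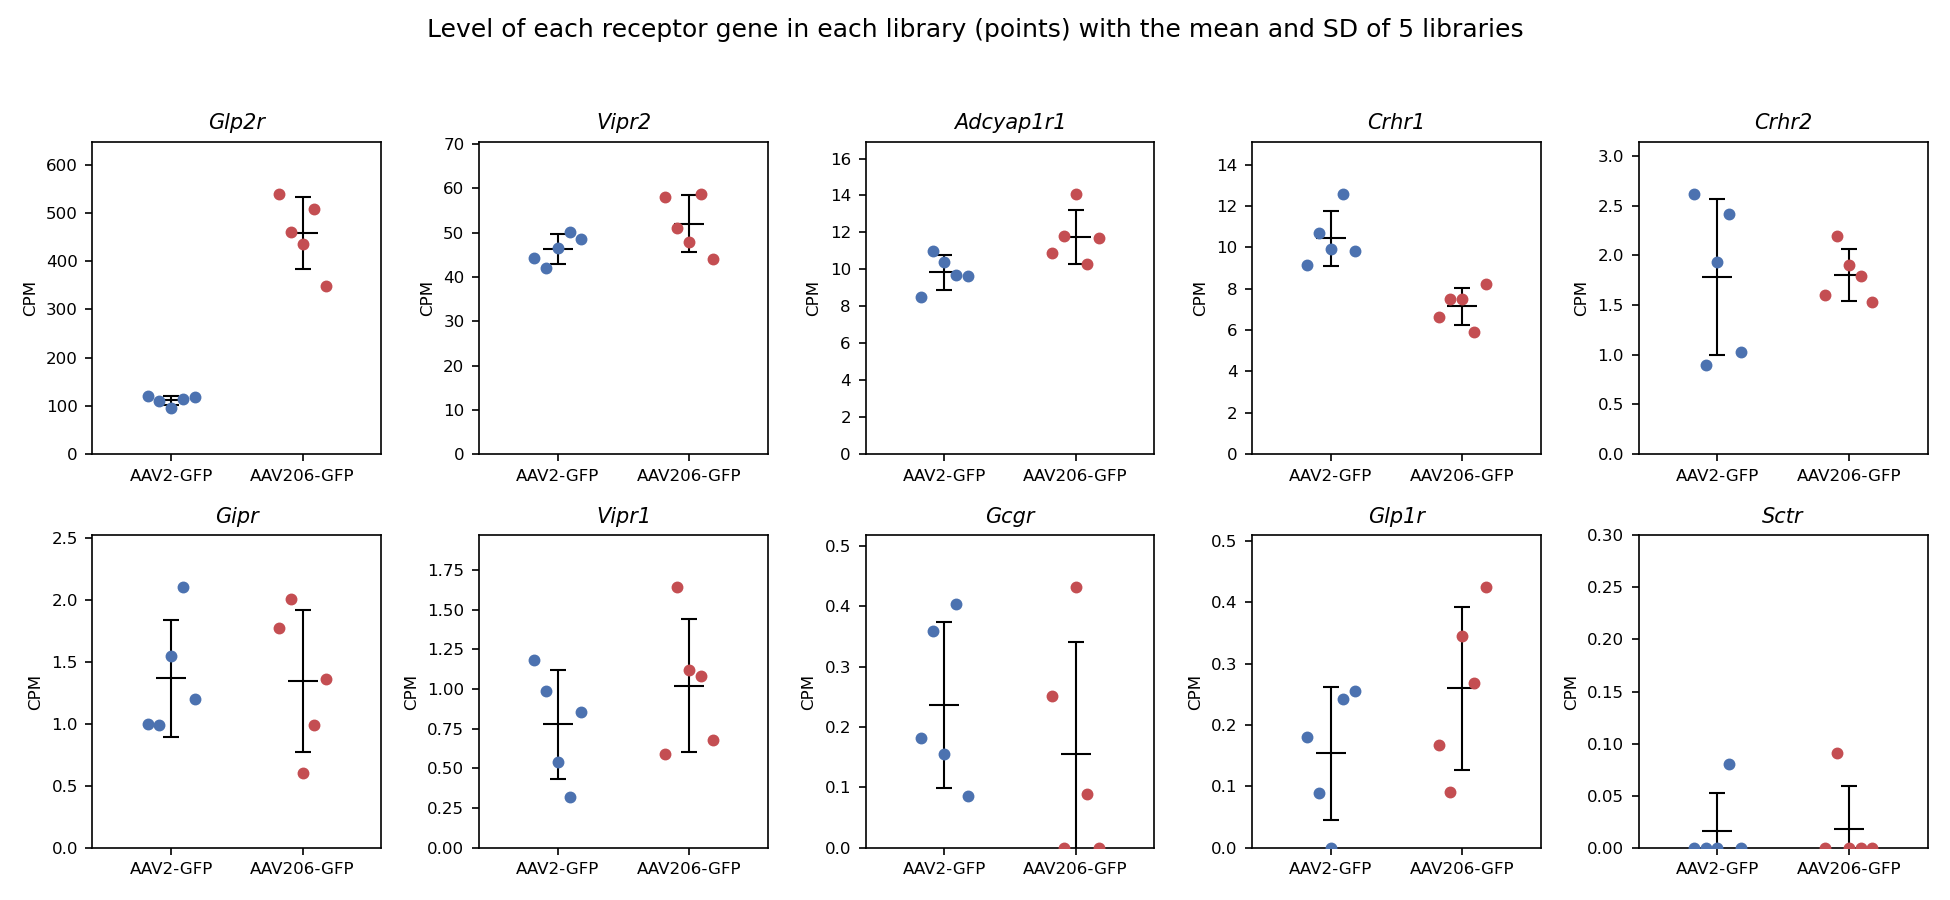
Level of each of the 10 class B receptor genes in CPM (vertical axis) in the 10 libraries, AAV2-GFP and AAV206-GFP side by side, with points for libraries and bars for mean and SD (n = 5). Glp2r separates completely upwards (96.0 to 120 against 348 to 540 CPM), Crhr1 separates downwards, and the other receptors overlap between the groups.

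The locus places Glp2r around a photoreceptor gene. GENCODE M21 lists 2 coding Glp2r transcripts. Glp2r-202 has 13 exons with 4873 exonic bases, runs from the gene's start to 64.7 kb, and ends in an exon of 3380 bases. Glp2r-201 has 10 exons with 1738 bases and runs from 13.4 to 109.7 kb, and 7 exons have the same ends in both. Rcvrn, which encodes the photoreceptor calcium sensor recoverin, lies on the opposite strand inside a 47673-base intron of Glp2r-201. No Glp2r exon lies within Rcvrn (0 exons), and 3096 bases separate the 3′ ends of Rcvrn and Glp2r-202, which point at each other. Gas7, a gene on the opposite strand known for a part in neurite outgrowth, shares 66 exon bases with Glp2r. The strand setting of the counting is not given in the sources used here, so reads of Glp2r and of opposite-strand transcripts cannot be told apart where they overlap. The deposited table holds 1 value per gene, so the 2 transcripts were not separated.

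**Figure D2:**
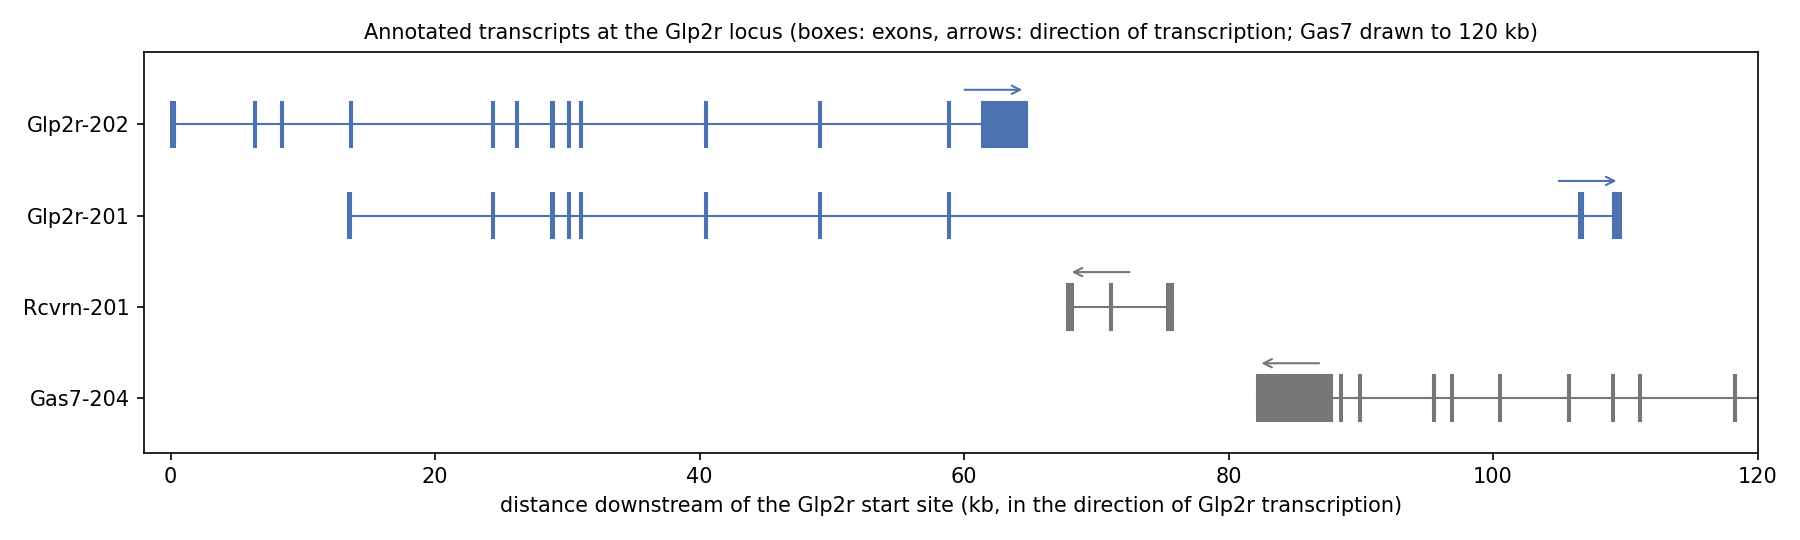
Map of the Glp2r gene with distance from its start in kb on the horizontal axis, drawn to scale, with exons of the 2 Glp2r transcripts as boxes and the opposite-strand genes on their own lines. Rcvrn sits between 67.8 and 75.8 kb, beyond the last exon of Glp2r-202 and inside an intron of Glp2r-201.

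Rcvrn, the gene inside the Glp2r intron, fell with AAV206-GFP. Its level was 849, 884, 923, 869 and 842 CPM in AAV2-GFP replicates 1 to 5 and 690, 756, 733, 716 and 773 CPM in AAV206-GFP replicates 1 to 5. The groups did not overlap, with every AAV206-GFP library below every AAV2-GFP library. The means were 873 ± 32.5 and 734 ± 32.4 CPM (SD, n = 5), and the log2 fold change was -0.25 (SE 0.05, edgeR adjusted p = 0.00643). Relative to the Rcvrn counts, the AAV2-GFP libraries held 12.8% ± 1.55 as many Glp2r counts and the AAV206-GFP libraries 62.9% ± 12.6 (SD, n = 5). Within the AAV206-GFP group, replicate 1 had the highest Glp2r and the lowest Rcvrn, and replicate 5 had the lowest Glp2r and the highest Rcvrn. With AAV2-GFP, replicate 3 had the lowest Glp2r and the highest Rcvrn. In CPM the mean of Glp2r differed by 347 and that of Rcvrn by -140 (AAV206-GFP minus AAV2-GFP). The rod marker sum, of which Rcvrn was not a member, was higher with AAV206-GFP, and its part in these values was not tested.

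**Figure D3:**
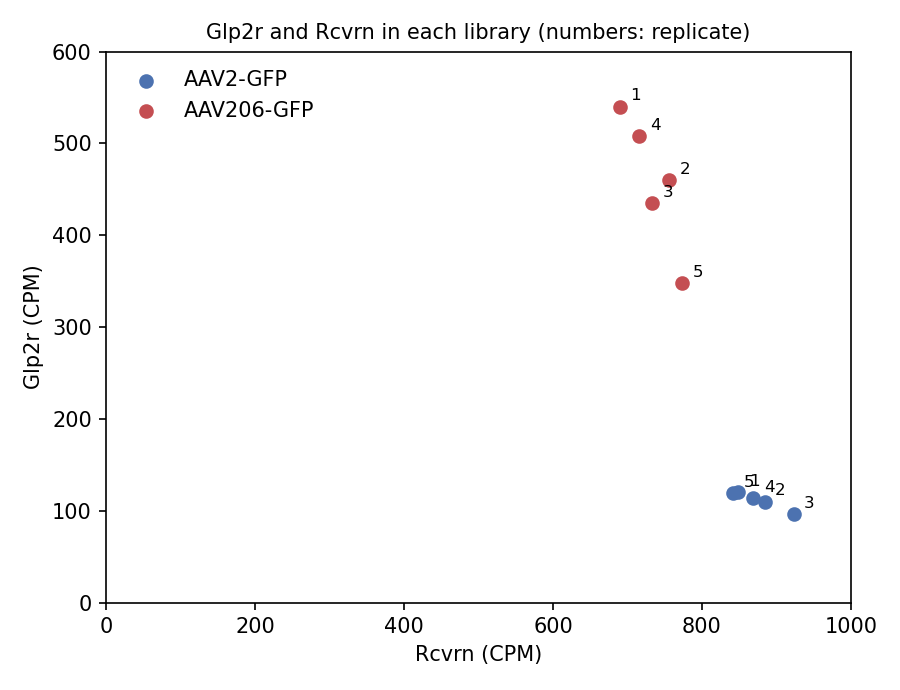
Glp2r (vertical axis, CPM) against Rcvrn (horizontal axis, CPM) in the 10 libraries, 1 point per mouse, numbered by replicate. The 5 AAV206-GFP libraries lie at 348 CPM of Glp2r or more and 773 CPM of Rcvrn or less, and the 5 AAV2-GFP libraries lie at 120 CPM of Glp2r or less and 842 CPM of Rcvrn or more.

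The other neighbours of Glp2r did not pass the edgeR test. Gas7 stood at 72.8 ± 7.67 CPM with AAV2-GFP and 61.0 ± 7.31 with AAV206-GFP (log2 fold change -0.25, SE 0.09, edgeR adjusted p = 0.0712), and without AAV206-GFP replicate 5 it was lower at an edgeR adjusted p of 0.0173 (log2 fold change -0.33). Gsg1l2, the nearest coding gene on one side, had 9.02 ± 2.56 and 9.34 ± 1.79 CPM (log2 fold change 0.05, SE 0.19, edgeR adjusted p = 0.904). Myh13, a muscle myosin heavy chain gene on the other side, had 0 or 1 count in each library and was not tested.

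Of the 9 relatives, Vipr2, Adcyap1r1 and Crhr1 stood well above the floor in every library, Crhr2, Gipr and Vipr1 were low, and Glp1r, Gcgr and Sctr had at most 5 counts in any library. Levels between genes are compared per kb of merged exon length, in CPM per kb. With AAV2-GFP, Glp2r led at 19.2 ± 1.68, followed by Vipr2 at 10.4, Crhr1 at 4.24 and Adcyap1r1 at 1.49 CPM per kb. Gipr stood at 0.392, Crhr2 at 0.348 and Vipr1 at 0.134 CPM per kb. Gcgr at 0.0903, Glp1r at 0.0265 and Sctr at 0.00802 CPM per kb closed the order. Each of the first 4 genes lay above the next in every AAV2-GFP library, while from Gipr down neighbouring genes overlapped. The order was the same with AAV206-GFP, where Glp2r stood at 78.8 ± 12.8 and Vipr2 at 11.6 CPM per kb. There too the first 4 genes did not overlap their next neighbour, and Crhr2 lay above Vipr1.

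Of the 9 relatives, 6 were tested and 1 was called, Crhr1, which was lower with AAV206-GFP, beside the 11.2% of all genes called. The median log2 fold change of the 6 was 0.09, with a range from -0.54 to 0.40, beside a median of -0.0095 over all genes tested. Crhr1 was also the only relative whose groups did not overlap, beside 9.78% of all genes tested that separated in either direction (5.41% higher and 4.36% lower with AAV206-GFP).

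Crhr1 encodes the type 1 receptor of corticotropin-releasing hormone (CRH), the receptor that drives the pituitary stress response. Its level was 9.13, 10.7, 9.90, 12.6 and 9.83 CPM in AAV2-GFP replicates 1 to 5, and 6.65, 7.48, 7.50, 5.92 and 8.22 CPM in AAV206-GFP replicates 1 to 5. Every AAV206-GFP library lay below every AAV2-GFP library, with AAV2-GFP replicate 4 the highest and AAV206-GFP replicate 4 the lowest. The means were 10.4 ± 1.33 and 7.15 ± 0.888 CPM (SD, n = 5), and the log2 fold change was -0.54 (SE 0.14, edgeR adjusted p = 0.0212). The call was lost without AAV2-GFP replicate 4 (log2 fold change -0.47, edgeR adjusted p = 0.0701) and without AAV206-GFP replicate 4 (-0.48, edgeR adjusted p = 0.0546). It was also lost without AAV2-GFP replicates 1 and 4 together (-0.51, edgeR adjusted p = 0.0668). Crhr2, which encodes the receptor preferred by the urocortins, had 0.898 to 2.62 CPM with AAV2-GFP and 1.53 to 2.19 CPM with AAV206-GFP. Its means were 1.78 ± 0.789 and 1.80 ± 0.263 CPM (log2 fold change 0.01, SE 0.32, edgeR adjusted p = 0.985).

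Vipr2, which encodes a receptor shared by VIP and PACAP, was the most abundant relative. Its level was 44.3, 41.9, 46.5, 50.2 and 48.6 CPM in AAV2-GFP replicates 1 to 5, and 58.1, 51.0, 47.9, 58.8 and 44.0 CPM in AAV206-GFP replicates 1 to 5. The groups overlapped, with AAV206-GFP replicates 1 and 4 the highest and replicates 3 and 5 within the AAV2-GFP range. The bipolar marker sum of the AAV206-GFP group was lowest in replicate 5, at 642 CPM, and was 908 CPM in replicate 3. Its part in the Vipr2 levels was not tested. The means were 46.3 ± 3.32 and 52.0 ± 6.43 CPM (log2 fold change 0.17, SE 0.09, edgeR adjusted p = 0.217). Vipr1, which encodes the other receptor of VIP, had 0.323 to 1.18 CPM with AAV2-GFP and 0.589 to 1.64 CPM with AAV206-GFP (log2 fold change 0.40, SE 0.41, edgeR adjusted p = 0.560).

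Adcyap1r1, which encodes the PACAP-preferring receptor, had 8.50, 11.0, 10.4, 9.68 and 9.65 CPM in AAV2-GFP replicates 1 to 5 and 10.9, 11.8, 14.1, 10.3 and 11.7 CPM in AAV206-GFP replicates 1 to 5. The groups overlapped, and AAV206-GFP replicate 3 was the highest library. The means were 9.83 ± 0.920 and 11.7 ± 1.43 CPM (log2 fold change 0.26, SE 0.12, edgeR adjusted p = 0.190).

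The closest relatives of Glp2r, the receptors of the other glucagon-family peptides, were scarce. Gipr, which encodes the receptor of the incretin GIP, had 0.988 to 2.10 CPM with AAV2-GFP and 0.604 to 2.01 CPM with AAV206-GFP. Its means were 1.36 ± 0.468 and 1.34 ± 0.569 CPM (log2 fold change -0.03, SE 0.36, edgeR adjusted p = 0.968). Glp1r, which encodes the receptor of the incretin GLP-1, had 2, 1, 0, 3 and 3 counts in AAV2-GFP replicates 1 to 5 and 2, 1, 4, 3 and 5 in AAV206-GFP replicates 1 to 5. Gcgr, the glucagon receptor gene, had 2, 4, 2, 5 and 1 counts in the first group and 3, 0, 5, 1 and 0 in the second. Sctr, the secretin receptor gene, had 1 count in 1 library of each group and 0 in the other libraries. These 3 genes were below the filter and were not tested, and at about the floor of 3 counts no fold is given for them.

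Over the 10 libraries, log2(CPM + 1) of Glp2r and Vipr2 gave Pearson r = 0.62, and r = 0.75 after the group means were removed. For Crhr1 the values were r = -0.90 and -0.54, and for Adcyap1r1 r = 0.60 and -0.49. The other tested relatives gave r = 0.36 and 0.20 (Vipr1), 0.11 and 0.07 (Crhr2), and -0.04 and 0.03 (Gipr). These are descriptions over libraries that differ in group, and no p-value is attached.

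Precursor transcripts of the peptides that these receptors bind were nearly all scarce in the retina, and the peptides themselves were not measured. Gcg, the proglucagon gene from which GLP-2, GLP-1 and glucagon are cut, was listed at 0 in all 10 libraries, which allows up to 0.274 CPM in a library by the floor of 3 counts. Ucn3, the gene of a CRHR2 ligand, was also at 0 in all libraries. Of 18 ligand genes listed, 14 had any count and 2 were tested, Vip and Adcyap1. Vip stood at 6.94 ± 1.41 CPM with AAV2-GFP and 5.91 ± 0.805 with AAV206-GFP (log2 fold change -0.23, SE 0.17, edgeR adjusted p = 0.390). Adcyap1, the PACAP precursor gene, stood at 3.81 ± 0.767 and 3.32 ± 0.720 CPM (log2 fold change -0.20, SE 0.22, edgeR adjusted p = 0.588). Of the 2, 0 passed with edgeR, 0 with DESeq2 and 0 with limma-voom, and 0 had an unadjusted p under 0.05.

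Below the filter, Crh had 4 to 18 counts per library, Sct, the secretin gene, 1 to 10, Ucn2 0 to 9 and Ucn 0 to 4. Gip had 1 count in total. Ucn and Ucn2 encode urocortins, which are ligands of the CRH receptors.

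Of the 7 genes for ligand processing and clearance, 1 was called (14.3%, beside 11.2% of all genes). Crhbp, which encodes a secreted protein that binds CRH and keeps it from its receptors, rose from 3.87 ± 0.499 CPM (3.16 to 4.56) with AAV2-GFP to 7.31 ± 2.23 CPM (5.68 to 10.7) with AAV206-GFP. Its groups did not overlap, and the log2 fold change was 0.92 (SE 0.21, edgeR adjusted p = 0.0102). The list includes Pcsk1, a prohormone convertase gene, at 12.3 ± 1.01 and 14.2 ± 0.972 CPM (edgeR adjusted p = 0.209), and Dpp4, the gene of the protease that inactivates GLP-1 and GLP-2, at 2.08 ± 1.37 and 1.65 ± 0.816 CPM (edgeR adjusted p = 0.671). The median log2 fold change of the 7 was 0.05.

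Other class B receptors outside the members were at low levels. Calcrl, which encodes the receptor of CGRP and adrenomedullin, stood at 4.11 ± 0.553 and 4.84 ± 1.06 CPM (log2 fold change 0.24, SE 0.19, edgeR adjusted p = 0.453). Of 5 such receptors 2 were tested, and 0 passed with edgeR, DESeq2 or limma-voom, with 0 at an unadjusted p under 0.05. Calcr, the calcitonin receptor gene, was below the filter, with 17 counts over the AAV2-GFP libraries and 54 over the AAV206-GFP libraries, and is named here after its values were seen. Its range was 0.0898 to 0.484 CPM and 0.505 to 1.44 CPM in the respective groups, with no overlap and no test. The 3 receptor activity-modifying proteins, accessory subunits of the calcitonin receptor family, were all tested with edgeR, DESeq2 and limma-voom, and 0 passed, with 0 at an unadjusted p under 0.05 and a median log2 fold change of -0.22.

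The machinery that carries the receptor signal was listed in 3 groups. Of 13 genes for cAMP production 1 was called, of 13 cAMP effectors 1, and of 15 tested genes for signal termination 4, which are 7.69%, 7.69% and 26.7% beside 11.2% of all genes. Medians of the log2 fold change were 0.01, 0.01 and -0.02. Over all 97 genes on the pathway lists, 92 had any count, 74 were tested and 9 were called (6 higher, 3 lower), which is 12.2%, close to the share of all genes.

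Gnas, which encodes the stimulatory G protein alpha subunit, fell from 675 ± 67.8 to 575 ± 14.3 CPM (log2 fold change -0.23, SE 0.07, edgeR adjusted p = 0.0336). Its values carried decimals in all 10 libraries, as happens when an estimator divides reads between genes, and its level is uncertain. The source of the decimals was not tested. The Gnas call was lost without AAV2-GFP replicate 3, 4 or 5 or AAV206-GFP replicate 2, 3, 4 or 5, with edgeR adjusted p from 0.0507 to 0.0898. Crtc1, a coactivator gene of the cAMP-responsive factor CREB, rose from 99.7 ± 9.35 to 119 ± 9.97 CPM (log2 fold change 0.26, SE 0.08, edgeR adjusted p = 0.0381). That call was lost without AAV2-GFP replicate 1, 3 or 4 or AAV206-GFP replicate 1, 2 or 4, with edgeR adjusted p from 0.0679 to 0.0988.

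Among signal termination genes, Arrb2 and Pde7b fell, and Pde8a and Pde8b rose. Arrb2 encodes beta-arrestin 2, which uncouples active receptors, and it went from 26.9 ± 1.3 to 20.8 ± 2.81 CPM (log2 fold change -0.37, edgeR adjusted p = 0.0233). The phosphodiesterase genes, whose products break down cAMP, went both ways. Pde7b went from 13.8 ± 1.35 to 10.2 ± 1.21 CPM (edgeR adjusted p = 0.0292), Pde8b from 114 ± 6.70 to 133 ± 4.75 CPM (edgeR adjusted p = 0.0208), and Pde8a from 76.1 ± 4.85 to 88.8 ± 7.34 CPM (edgeR adjusted p = 0.0483). Pde8b values carried decimals in all 10 libraries and are uncertain. Each of the 4 calls was lost when single libraries were left out. For Arrb2 these were AAV2-GFP or AAV206-GFP replicate 3 or 4 (edgeR adjusted p 0.0514 to 0.0618), and for Pde8b AAV2-GFP replicate 4 (0.0634) or AAV206-GFP replicate 4 (0.0507). For Pde7b they were AAV2-GFP replicate 3, 4 or 5 or AAV206-GFP replicate 1, 2, 3 or 4 (edgeR adjusted p 0.0568 to 0.0782). The Pde8a call was lost without AAV2-GFP replicate 1, 3, 4 or 5 or AAV206-GFP replicate 1, 2, 3 or 4 (edgeR adjusted p 0.0644 to 0.113). It was also lost with DESeq2's size factors (edgeR adjusted p = 0.0503), with library size only (0.0556), with no filter (0.0627) and with limma-voom (0.0541).

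Genes that cAMP signalling is known to induce did not pass the test. Of 12 tested with edgeR 0 were called, with 0 by DESeq2 and 0 by limma-voom, while 6 had an unadjusted p under 0.05. Over all genes tested 11.2% were called, and 4352 (28.0%) had an unadjusted p under 0.05. The median log2 fold change of the 12 was -0.22, and 10 of the 12 had a value below 0. Fos, an immediate early gene, stood at 31.9 ± 4.30 CPM with AAV2-GFP and 25.9 ± 4.70 with AAV206-GFP (edgeR adjusted p = 0.124), Crem at 12.3 ± 0.998 and 10.1 ± 1.38 CPM (edgeR adjusted p = 0.140), and Per1, a clock gene, at 115 ± 10.4 and 126 ± 16.0 CPM (edgeR adjusted p = 0.335). These 3 are named after their values were seen.

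The growth factor systems through which GLP-2 is known to act in the intestine included 2 called genes of 7 tested (28.6%, beside 11.2% of all genes). Both were higher, and 5.95% of all genes were called higher. Igfbp3, which encodes a binding protein of insulin-like growth factors, rose from 1.72 ± 1.07 CPM (0.854 to 3.50) to 4.66 ± 1.01 CPM (3.70 to 6.10), a log2 fold change of 1.44 (SE 0.33, edgeR adjusted p = 0.0111). That call was lost without AAV2-GFP replicates 1 and 4 together (log2 fold change 1.15, edgeR adjusted p = 0.0608). Egfr, the epidermal growth factor receptor gene, rose from 15.5 ± 1.46 to 21.2 ± 3.34 CPM (log2 fold change 0.45, SE 0.11, edgeR adjusted p = 0.0198). Igf1 stood at 25.3 ± 0.965 and 27.8 ± 3.85 CPM (edgeR adjusted p = 0.382) and its receptor gene Igf1r at 239 ± 23.3 and 222 ± 13.3 CPM (edgeR adjusted p = 0.350), both named after their values were seen.

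**Figure D4:**
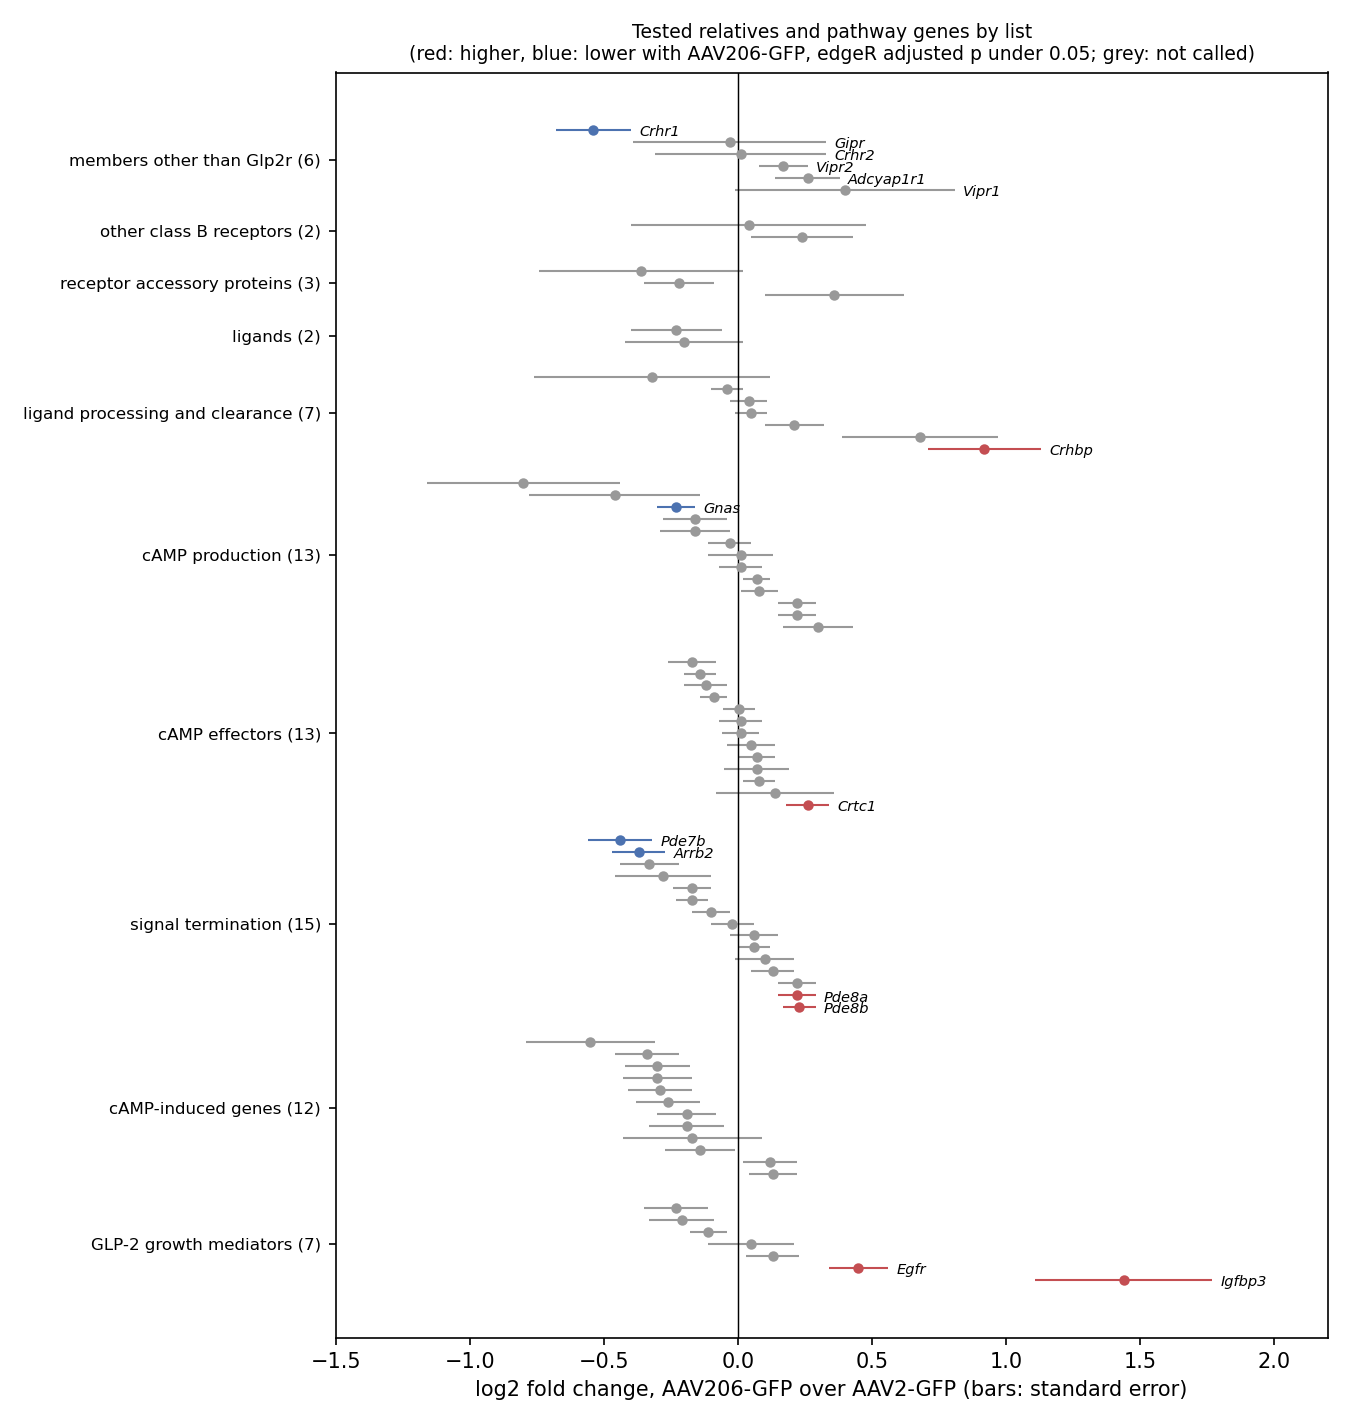
Log2 fold change of AAV206-GFP over AAV2-GFP (horizontal axis, bars for 1 standard error) for each tested relative of Glp2r and each tested pathway gene, grouped by list with the number tested in brackets. Red genes were called higher, blue genes lower and grey genes were not called by edgeR, and called genes and tested relatives are named. Crhr1 is the only called relative, at -0.54.

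Genes whose levels followed Glp2r most closely over the 10 libraries were E130307A14Rik, AC124973.2, Flt1, Lars and B130024G19Rik, by Pearson's r of log2(CPM + 1) among 14957 genes. The 10 libraries share the difference between the groups, which a high r can reflect, so r is given as a description without a p-value. E130307A14Rik had r = 0.991, and r = 0.790 after the group means were removed, with 22.7 ± 1.13 CPM in AAV2-GFP and 39.1 ± 3.20 CPM in AAV206-GFP. Its values carried decimals in 6 libraries. AC124973.2 had r = 0.991 (0.816 without the group means) and went from 0, 3 or 4 counts per AAV2-GFP library to 27 to 54 counts per AAV206-GFP library. It passed the filter through the AAV206-GFP group, and with AAV2-GFP counts at about the floor no fold is given for it. In both genes, as in Glp2r, AAV206-GFP replicate 1 was the highest and replicate 5 the lowest library of its group.

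Flt1, which encodes a receptor of vascular endothelial growth factor, had r = 0.980 (0.433 without the group means), with 90.7 ± 3.53 and 130 ± 5.59 CPM. Flt1 was higher with AAV206-GFP while the summed endothelial markers were lower, and the part of that cell type in its level was not tested. Lars, the cytosolic leucyl-tRNA synthetase gene, had r = 0.979 (0.622) with 40.2 ± 1.53 and 65.9 ± 6.12 CPM. B130024G19Rik had r = 0.979 (0.723) with 1.29 ± 0.293 and 3.44 ± 0.438 CPM, and its values carried decimals in 2 libraries. With Spearman's rank correlation, or with deviations from the group means, 0 of these 5 genes remained among the 5 most alike.

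**Figure D5:**
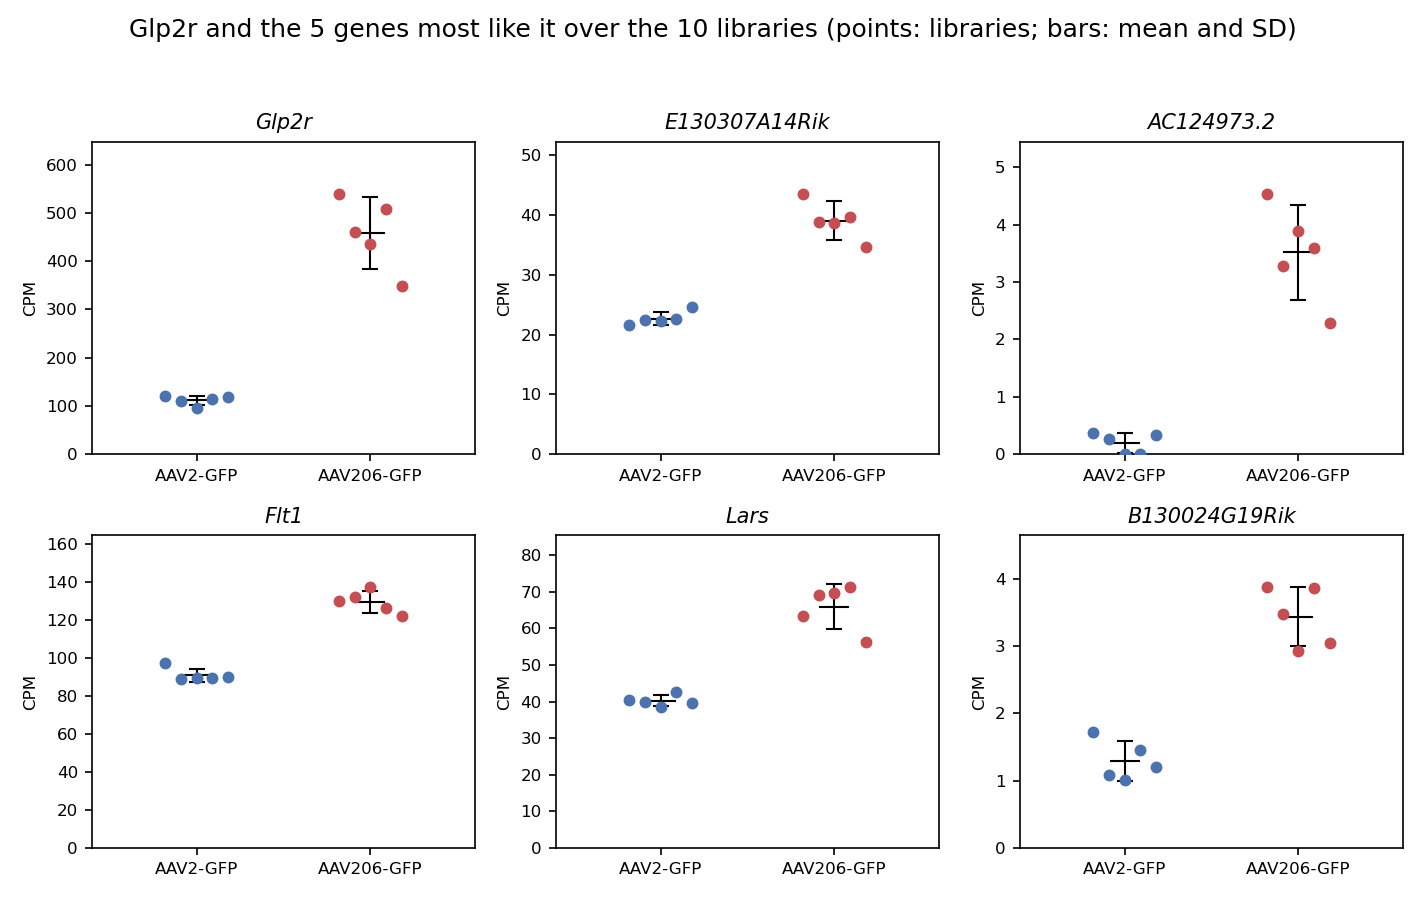
Level in CPM (vertical axis, from 0) of Glp2r and of the 5 genes most like it, by group, with points for libraries and bars for mean and SD (n = 5). In all 6 panels the groups are separate. On the log2 scale the step runs from 0.51 in Flt1 to 2.04 in Glp2r. AC124973.2 is left out of that range, because its AAV2-GFP counts were at about the floor.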

How the data were processed

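Bulk RNA-seq of 10 retinas (5 per vector, grouped by title) was analysed. The deposited values are estimated counts per gene, unscaled, and the submitters' processing notes name STAR 2.7.10b, RSEM 1.3.1 and mm10. The strand setting and annotation are not given in the sources used here. Per the labels' protocols, NEBNext Ultra libraries were read as pairs of 150 bases.

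Between 5.57% and 6.18% of the deposited values per library carried decimals, and they were rounded. GENCODE M21 named 52029 of 57010 identifiers (91.3%). In edgeR 4.0.16 (R 4.3.3), filterByExpr (minimum count 10), TMM factors and a quasi-likelihood F test were applied to the whole table, and p-values were adjusted over it by Benjamini-Hochberg (threshold 0.05). Standard errors (SE) were derived from the fold change and F (size of the log2 value over the root of F). DESeq2 1.42.0 and limma 3.58.1 served as alternatives, beside other scalings, filters, a replicate block and fits without single libraries. The procedure was tested on simulated counts.

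The members and lists were chosen with earlier results of these data known. Named genes are the members, ligand genes with any count, called pathway genes (at most 4 a list), genes overlapping or flanking Glp2r, and the 5 most like it (mean of at least 1 CPM). Within-group library pairs differed by more than sampling noise (chi-square per degree of freedom 3.71 to 22.7). The floor of 3 counts covers counting error only, because PCR copies were not marked.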

Additional observations from a re-analysis of the deposited data

Results flagged for a closer look

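Single libraries stood apart from the other 4 of their group in 7 of 62 groups of 5 examined, by Dixon's ratio of the gap to the range (critical value 0.71), and chance alone gives about 3.10. None of the receptor genes examined was among them. Groups with at most 3 counts in every library were not examined, which left out Sctr in both groups and Glp1r in AAV2-GFP. In AAV206-GFP replicate 5, Gas7 stood at 73.8 CPM (others 56.0 to 59.7), Vip at 7.29 CPM (others 5.20 to 5.78) and Pde7b at 12.3 CPM (others 9.49 to 10.2). In AAV206-GFP replicate 4, Egfr was high at 27.1 CPM (others 19.2 to 20.6) and Adcyap1 low at 2.06 CPM (others 3.47 to 3.90). In AAV2-GFP replicate 1, Flt1 was high at 97.0 CPM (others 88.7 to 89.8), and Ucn was at 0.362 CPM, with 0 in the others of that group.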

How the results depend on the processing

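The log2 fold change of Glp2r stayed between 1.97 and 2.12 when single libraries were left out and between 2.03 and 2.08 under the other alternatives. With the replicate block, 1085 genes were called in all, and 0 class B relatives, 0 cAMP production genes, 0 cAMP effectors and 0 signal termination genes. Crhr1 then stood at -0.54 (edgeR adjusted p = 0.0580). Over all genes tested, correlations of the deviations of same-numbered samples ran from -0.05 to 0.04. From the AAV2-GFP side, 0 samples correlated best with their own number. This check cannot exclude a shared factor that acts on some genes only. With single libraries left out, genes called ranged from 991 (without AAV2-GFP replicate 4) to 1912 (without AAV2-GFP replicate 1). In those fits, called relatives ranged from 0 to 1, cAMP production genes from 0 to 2, cAMP effectors from 0 to 1, signal termination genes from 0 to 4, cAMP-induced genes from 0 to 1 and neighbours of Glp2r from 1 to 2. Without AAV2-GFP replicates 1 and 4, which an earlier analysis of these data set apart, 985 genes were called, with 0 relatives, 0 cAMP effectors, 2 signal termination genes and 1 GLP-2 growth mediator. DESeq2 called 2 cAMP production genes. The cause of these shifts was not tested, and the fits without libraries also hold fewer samples.

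Of 524 comparisons of 25 genes with an alternative, 456 kept direction and side of the threshold, 53 fell below it, 1 rose past it and 14 changed sign. The sign changed only in genes near 0. Between fits without 1 library, Gipr (-0.03) ran from -0.21 to 0.18 and Crhr2 (0.01) from -0.15 to 0.19. Gipr became 0.02 without AAV2-GFP replicate 3, 0.18 without AAV2-GFP replicate 4, 0.16 and 0.06 without AAV206-GFP replicates 3 and 4, and 0.10 without AAV2-GFP replicates 1 and 4. Crhr2 became -0.15 and -0.13 without AAV2-GFP replicates 2 and 5, and -0.07 and -0.0065 without AAV206-GFP replicates 2 and 3. Gsg1l2 (0.05) became -0.06 and -0.05 without AAV2-GFP replicates 1 and 5, -0.01 and -0.03 without AAV206-GFP replicates 1 and 2, and -0.07 without AAV2-GFP replicates 1 and 4. Glp1r, Gcgr and Sctr, at 0 to 5 counts per library, entered only the fit without a filter, in which 1 relative was called, Crhr1 (-0.55, edgeR adjusted p = 0.0352).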
